A study of Homo sapiens with 12 samples.

Results

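The 10 RNAs described here, GAS5, SNHG1, SNHG5, SNHG6, SNHG7, SNHG8, SNHG12, SNHG15, SNHG16 and ZFAS1, are spliced transcripts with little or no coding capacity whose introns hold small nucleolar RNAs (snoRNAs). They were chosen by name, as snoRNA hosts counted among the terminal oligopyrimidine (TOP) RNAs, out of 59385 gene names in the count table. All 10 were among the 18166 genes with enough counts to be tested. The libraries came from HEK293T, a human embryonic kidney cell line, in the form of a line with a Dox-inducible non-targeting shRNA (shCtrl) and a line with a Dox-inducible shRNA against PRRC2B (shPRRC2B), an RNA-binding protein studied for its part in translation. Both lines were stable single clones selected with puromycin and both received Dox for 36 h, so a difference between the shRNAs cannot be told apart from a difference between the clones. Total RNA and polysome-associated RNA, pooled from the heavy fractions of a sucrose gradient, were poly(A)-enriched and sequenced in 3 replicates per line and fraction, which gave 12 libraries. The study asked how translation efficiency changed with PRRC2B, and the question here is whether the host RNAs were found with polysomes and whether they moved with ribosomal protein mRNAs.

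A snoRNA host gene is transcribed and spliced, its introns are trimmed to snoRNAs that guide ribose methylation (C/D box) or pseudouridylation (H/ACA box) of ribosomal RNA, and the joined exons are exported. TOP RNAs begin with a C followed by a run of pyrimidines, and the class holds nearly all ribosomal protein mRNAs together with translation factors, whose translation follows mTOR signalling through the cap-binding repressor LARP1. Host RNAs such as GAS5 are textbook substrates of nonsense-mediated decay (NMD), a decay route that needs translation, and have short open reading frames with early stop codons.

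By their snoRNAs, in the RefSeq gene table of GRCh38, the members fell into 3 sets that together hold 37 snoRNA entries. GAS5 holds 11 (10 of them C/D box), SNHG1 holds 9, SNHG16 and ZFAS1 hold 3 each, SNHG5 holds 2 and SNHG6 holds 1, all or nearly all of the C/D box type. SNHG7 with 2, SNHG8 with 1 and SNHG15 with 1 hold H/ACA box snoRNAs, and SNHG12 holds 4 of both types. The snoRNAs themselves are not polyadenylated, and of the 25 with an entry of their own among the gene names only 5 had any count, at most 18 in a library. The values below are counts over each host gene as annotated, made by the authors with a GENCODE release other than 44. They may not be limited to spliced exons. In GENCODE 44 the exons of all isoforms together cover 100% of the span of SNHG1, SNHG8 and SNHG15 and 92.8% of that of SNHG12. If the same holds in the release used for counting, reads from introns of their main isoforms can count, which was not tested.

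In GENCODE 44 on GRCh38 all members are annotated as lncRNA genes. GAS5 lies on chromosome 1 (173858559 to 173868882, minus strand), as does SNHG12 (28578538 to 28583132, minus strand). SNHG1 is on chromosome 11 (62851978 to 62855953, minus strand), SNHG5 on chromosome 6 (85650491 to 85678932, minus strand), SNHG7 on chromosome 9 (136721366 to 136728184, minus strand) and SNHG15 on chromosome 7 (44983019 to 44986961, minus strand). SNHG8 is on chromosome 4 (118278703 to 118285316, plus strand), SNHG16 on chromosome 17 (76557727 to 76670985, plus strand) and ZFAS1 on chromosome 20 (49278178 to 49299600, plus strand). Counting by the authors used no strand setting and dropped read pairs that fell on more than 1 gene, and the members differ in how much of their canonical transcript other genes cover. That share was 81.7% for SNHG6 (MCMDC2, antisense), 60.7% for SNHG5 (among others PKMP3, same strand), 46.4% for SNHG7 (among others DIPK1B, antisense) and 40.3% for SNHG8 (PRSS12, antisense), and 0% for GAS5, SNHG1 and SNHG16. Levels of the overlapped members may therefore be understated or shared, which was not tested. The shares are those in GENCODE 44 and may differ in the release used for counting.

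The TOP label was compared with the annotated starts. The motif searched was a C as the first base of the transcript followed by at least 4 further C or T, on the transcribed strand only. Over the starts annotated in GENCODE 44, 8 of the 10 members had at least 1 start with this motif, as had 72 of 79 ribosomal protein genes (91.1%), 16.3% of all protein-coding genes and 5.92% of all lncRNA genes. Of the members' 117 annotated starts 13 carried it (11.1%), compared with 16.0% of the starts of ribosomal protein genes and 2.75% of those of all lncRNA genes. SNHG15 and SNHG7 had no such start, and the longest tract of SNHG7 was 4 bases. With the RefSeq start alone the motif was present in 3 of the 8 members that matched the table, in 47 of 63 ribosomal protein genes (74.6%) and in 5.14% of all genes in it. The windows below run from 10 bases before the start to 20 bases from the start on, 5′ to 3′ on the transcribed strand, with the pyrimidine tract that begins at the annotated start in capitals; they are shown because the tract is what would place a host RNA in the same class as ribosomal protein mRNAs. SNHG1, SNHG5, SNHG7, SNHG12, ZFAS1 and the 3 TOP mRNAs given for comparison are at their RefSeq starts (GRCh38.p14).
SNHG1 (chr11:62855866-62855895, minus strand): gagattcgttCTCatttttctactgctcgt
SNHG5 (chr6:85678714-85678743, minus strand): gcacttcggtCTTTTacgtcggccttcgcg
SNHG7 (chr9:136728165-136728194, minus strand): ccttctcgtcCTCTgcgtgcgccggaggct
SNHG12 (chr1:28581854-28581883, minus strand): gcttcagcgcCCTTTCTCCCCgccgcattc
ZFAS1 (chr20:49278632-49278661, plus strand): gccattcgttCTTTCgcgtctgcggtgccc
EEF1A1, elongation factor (chr6:73521013-73521042, minus strand): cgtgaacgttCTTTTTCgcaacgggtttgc
RPLP0, ribosomal protein (chr12:120201092-120201121, minus strand): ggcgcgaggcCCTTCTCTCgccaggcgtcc
TPT1, a growth-related TOP mRNA (chr13:45341164-45341193, minus strand): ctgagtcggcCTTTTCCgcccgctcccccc
For GAS5, SNHG8 and SNHG16 the GENCODE 44 start with the longest tract is shown (GRCh38), since the RefSeq start of GAS5 lies elsewhere and has no tract, and those of SNHG8 and SNHG16 lie a few bases away, where the tract is shorter or absent.
GAS5 (chr1:173867970-173867999, minus strand): accatactgtCTTTTCgaggtaggagtcga
SNHG8 (chr4:118278748-118278777, plus strand): aggcctcggcCTTTCacattcgggaagcgt
SNHG16 (chr17:76557759-76557788, plus strand): gtctcgcgttCTTTTCgaggtcggccgcgt
Genes with more annotated starts had more chances to hold the motif, and which start HEK293T cells use was not measured.

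Library totals were 9855734 to 20837542 counts. Ribosomal protein genes took up 7.05% to 8.18% of the counts of shCtrl total libraries and 27.6% to 31.7% of shCtrl polysome libraries, and 4.80% to 4.98% and 22.2% to 25.3% in shPRRC2B cells. The 10 members took up 0.0648% to 0.0721% and 0.134% to 0.226% in shCtrl cells, and 0.0413% to 0.0480% and 0.148% to 0.165% in shPRRC2B cells. PRRC2B mRNA was at 281 ± 28.7 CPM (SD, n = 3) in shCtrl and 100.2 ± 2.31 CPM (SD, n = 3) in shPRRC2B total RNA. The kidney line markers CDH2, VIM and PAX2 were found in every group (PAX2 at 3.15 CPM or more on average), PAX8 was at or near 0, and PTPRC, ALB and PECAM1, which mark leukocytes, hepatocytes and endothelium, did not exceed 0.433 CPM in any library. Replicates differed more in the polysome than in the total fraction, and shCtrl polysome replicate 1 stood apart, with a chi-square per degree of freedom over genes of 53.7 and 75.2 against replicates 2 and 3, which differed from each other by 22.3. Without that library the members called higher were 9 in each polysome/total ratio, 6 in TE and 1 with polysomes, compared with 9, 10, 5 and 2 with it. In the shPRRC2B polysome libraries replicate 1 differed by 37.7 and 37.4 from the others, which differed by 13.8, and without it these members numbered 9, 9, 5 and 2. The labels call the 3 libraries of a group biological replicates without naming separate cultures, so p-values measure the spread between these samples.

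The host RNAs were found with polysomes in both lines. In shCtrl cells 9 of the 10 had a polysome/total ratio called higher than 1, with log2 ratios from 1.50 (SNHG1) to 2.96 (SNHG8), and 0 had a lower one, compared with 32.5% of all genes tested called higher and 39.8% called lower. In shPRRC2B cells all 10 were called higher, from 0.51 (SNHG5) to 4.02 (SNHG8), compared with 36.6% and 42.3% of all genes. SNHG5 was the exception in shCtrl cells, with a log2 ratio of 0.33 (SE 0.20, adjusted p = 0.144, edgeR quasi-likelihood with Benjamini-Hochberg adjustment). The members' median log2 ratio was 2.43 in shCtrl and 2.95 in shPRRC2B cells, against 0.77 and 1.61 for the 1313 lncRNA genes tested, and 3.02 and 3.40 for the 77 ribosomal protein genes tested. A gene was called where the adjusted p was under 0.05 and the log2 value past 0.5 in either direction. The 2 lines share no library in these ratios, but both ratios came from 1 fit with a shared filter, scaling and estimate of spread. They are thus not independent results.

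**Figure D1:**
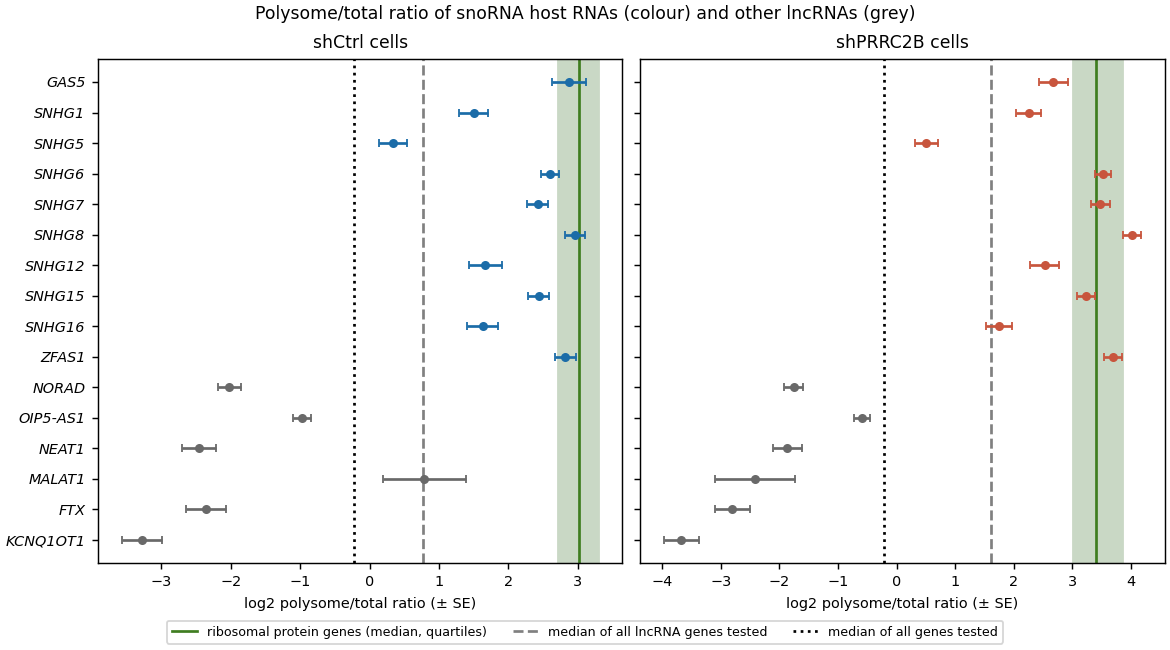
Log2 polysome/total ratio (points, ± SE) of the 10 host RNAs (colour) and of other lncRNAs (grey) in shCtrl (left) and shPRRC2B cells (right); the green line and band are the median and the quartiles of ribosomal protein genes, and the broken and dotted lines are the medians of all lncRNA genes and of all genes tested. In shCtrl cells the members reach from 0.33 to 2.96, none above the ribosomal protein median of 3.02, while NORAD, NEAT1, FTX and KCNQ1OT1 lie below -2.

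Long noncoding RNAs known for other places in the cell served as a reference. By the study's methods nuclei were pelleted before the gradient. A low ratio of nuclear RNAs would thus follow from the preparation alone, and is no test of the members. The nuclear RNAs NEAT1, which builds paraspeckles, and KCNQ1OT1, which silences an imprinted domain, had log2 ratios of -2.46 and -3.28 in shCtrl cells and -1.87 and -3.67 in shPRRC2B cells. FTX was at -2.35 and -2.80, and MIAT at -3.17 and -1.03, the last not past the test (adjusted p = 0.157, edgeR). MIAT was near the floor, with means of 0.981 CPM in shCtrl total and 0.111 CPM in shCtrl polysome libraries. The cytoplasmic RNA NORAD, a decoy for Pumilio proteins, was at -2.02 and -1.75 and OIP5-AS1 at -0.98 and -0.59, while CYTOR was at 2.15 and 2.85, among the members. These reference RNAs were thus called lower in the ratio in both lines, apart from CYTOR, from MIAT in shPRRC2B cells and from MALAT1. MALAT1, a nuclear speckle RNA, was at 0.79 in shCtrl cells (adjusted p = 0.239, edgeR), where its polysome libraries spread from 15.0 to 368 CPM, and at -2.42 in shPRRC2B cells.

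Zero on this scale is set by TMM scaling, which matters because ribosomal protein mRNAs fill a large part of the polysome libraries. With scaling by total counts the median log2 ratio of all genes moved from -0.22 to -1.22 in shCtrl cells and from -0.22 to -1.16 in shPRRC2B cells, and the share of called genes that were higher from 45.0% to 23.1% and from 46.4% to 29.6%. Of the members, 8 and 9 were then called higher. SNHG5 turned to -0.67 in shCtrl cells, where it was called lower, and to -0.44 in shPRRC2B cells, and SNHG1 in shCtrl cells was no longer called at 0.50.

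Among the C/D box hosts, GAS5, a growth arrest transcript that also acts as a decoy for the glucocorticoid receptor, had 159, 160 and 152 CPM in the 3 shCtrl total libraries and 692, 1183 and 1586 CPM in the polysome libraries. In shPRRC2B cells it had 69.7, 73.3 and 83.9 CPM in total RNA and 334, 526 and 588 CPM with polysomes. Polysome libraries lay above total libraries in each line without overlap, as they did for all 10 members in both lines, compared with 33.4% of all genes in shCtrl and 38.8% in shPRRC2B cells that did so in this direction (43.2% and 45.7% in the other). The log2 ratio of GAS5 was 2.88 (SE 0.25, adjusted p = 8.1e-09, edgeR) and 2.67 (SE 0.25, adjusted p = 1.39e-08, edgeR). Among the shCtrl polysome libraries replicate 1 was lowest and replicate 3 highest for GAS5, as for 8 of the 10 members, all but SNHG6 and SNHG12.

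ZFAS1, the antisense RNA at ZNFX1, had 15.0, 17.6 and 16.8 CPM in shCtrl total RNA, 101, 110 and 138 CPM in shCtrl polysomes, 12.3, 13.4 and 13.7 CPM in shPRRC2B total RNA and 155, 156 and 200 CPM in shPRRC2B polysomes. SNHG6 had 30.0, 33.6 and 29.3 CPM, then 190, 170 and 204 CPM, 20.5, 20.0 and 22.0 CPM, and 223, 231 and 265 CPM in the same order of groups. For both, the shPRRC2B polysome libraries were the highest of the 4 groups and the shPRRC2B total libraries the lowest, with no overlap between groups. The log2 ratios were 2.82 (SE 0.15) and 3.70 (SE 0.16) for ZFAS1 and 2.60 (SE 0.13) and 3.52 (SE 0.13) for SNHG6.

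SNHG1 had 108, 95.9 and 93.9 CPM in shCtrl total RNA, 174, 289 and 383 CPM in shCtrl polysomes, 63.3, 64.7 and 72.8 CPM in shPRRC2B total RNA and 369, 260 and 329 CPM in shPRRC2B polysomes. SNHG16 had 62.2, 66.4 and 40.0 CPM, then 119, 152 and 253 CPM, 75.2, 66.0 and 80.4 CPM, and 243, 262 and 239 CPM. Their polysome libraries overlapped between the lines. The log2 ratios were 1.50 (SE 0.21) and 2.25 (SE 0.21) for SNHG1 and 1.63 (SE 0.22) and 1.75 (SE 0.22) for SNHG16, which put both under the lower quartile of ribosomal protein genes in each line.

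SNHG5 was counted least, with 61 to 159 counts per library. Its levels were 5.05, 5.80 and 6.07 CPM in shCtrl total RNA and 6.27, 6.61 and 8.42 CPM in shCtrl polysomes, and 6.24, 5.61 and 6.16 CPM and 8.41, 9.06 and 8.08 CPM in shPRRC2B cells. Polysome libraries were again above total libraries, by a small margin. In shPRRC2B cells its log2 ratio of 0.51 (SE 0.20, adjusted p = 0.0252, edgeR) stood just inside the limit of 0.5, and the call was lost when any of the 12 libraries was left out (0.41 to 0.51).

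The H/ACA box hosts all lay above 2.4 on the log2 scale in this ratio in both lines, as did the C/D box hosts GAS5, SNHG6 and ZFAS1. SNHG8 had 14.0, 16.7 and 13.2 CPM in shCtrl total RNA, 101, 106 and 135 CPM in shCtrl polysomes, 10.9, 10.9 and 11.8 CPM in shPRRC2B total RNA and 174, 171 and 198 CPM in shPRRC2B polysomes. SNHG7 had 52.2, 65.0 and 45.3 CPM, then 245, 306 and 321 CPM, 26.1, 27.0 and 25.8 CPM, and 259, 296 and 324 CPM. SNHG15 had 36.7, 39.5 and 35.0 CPM, then 165, 208 and 229 CPM, 21.7, 20.0 and 20.1 CPM, and 193, 161 and 226 CPM. All 3 were lower in each shPRRC2B total library than in each shCtrl total library, while the polysome libraries of SNHG7 and SNHG15 overlapped between the lines and those of SNHG8 did not. The log2 ratios in shCtrl and shPRRC2B cells were 2.96 (SE 0.15) and 4.02 (SE 0.15) for SNHG8, 2.42 (SE 0.15) and 3.48 (SE 0.16) for SNHG7, and 2.43 (SE 0.15) and 3.23 (SE 0.15) for SNHG15. SNHG12, with snoRNAs of both types, lay at 9.52 to 11.9 CPM in shCtrl and 6.43 to 9.82 CPM in shPRRC2B total RNA, and at 23.6 to 48.2 CPM and 32.9 to 50.2 CPM with polysomes, for log2 ratios of 1.67 (SE 0.24) and 2.53 (SE 0.25).

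**Figure D2:**
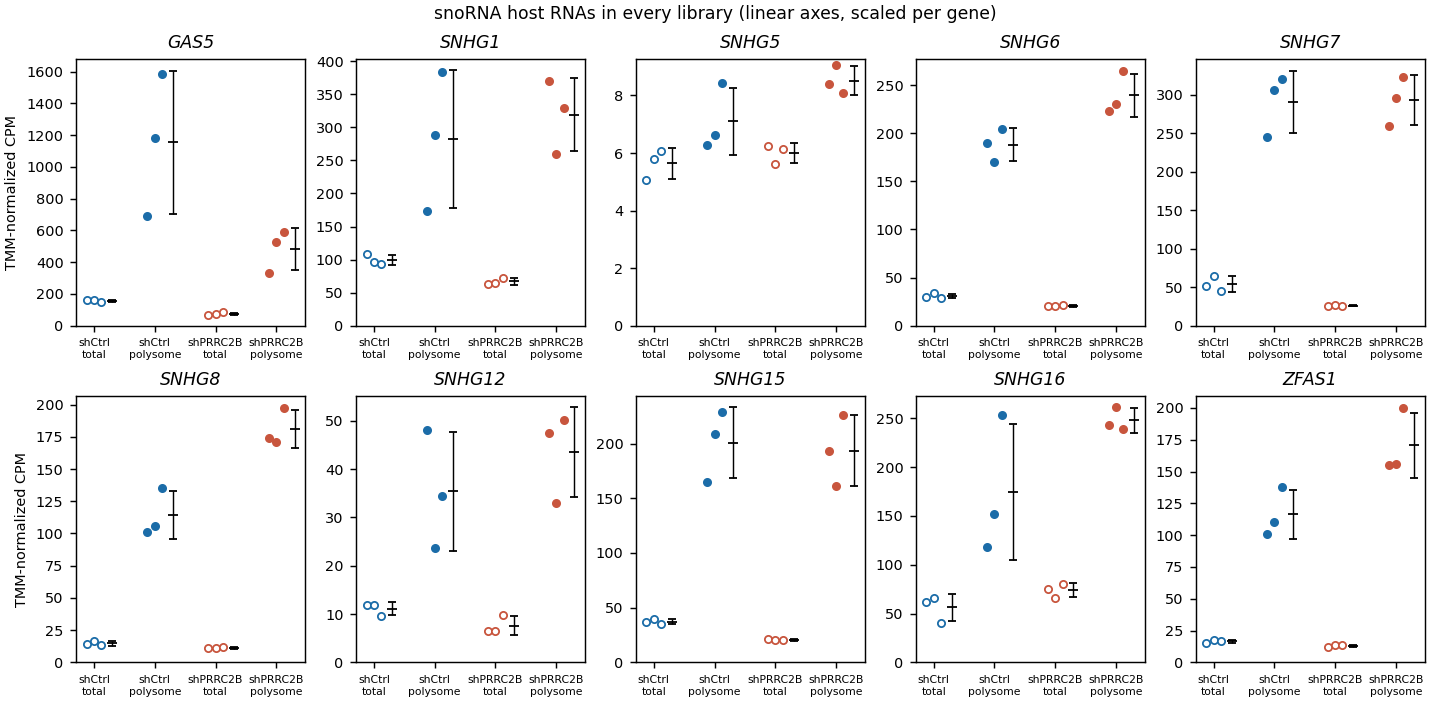
TMM-normalized CPM (linear axes from 0, scaled per gene) of the 10 host RNAs in each library of the 4 groups, open circles for total and filled circles for polysome-associated RNA, with the group mean ± SD (n = 3). GAS5 is the member whose shPRRC2B libraries all lie below the shCtrl libraries in both fractions, with 69.7 to 83.9 against 152 to 160 CPM in total RNA and 334 to 588 against 692 to 1586 CPM with polysomes.

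Length is a property the choice of members did not use and that goes with the ratio across all genes. Over the 15762 tested genes with a canonical length, the median log2 ratio in shCtrl cells was 2.35 for transcripts over 500 and up to 1000 nt, 1.22 up to 2000 nt, -0.09 up to 4000 nt and -1.37 beyond, and in shPRRC2B cells 2.94, 1.48, -0.13 and -1.89. The 493 genes up to 500 nt had lower medians than the next class, 1.88 in shCtrl and 2.47 in shPRRC2B cells. Their quartiles in shCtrl cells were -1.17 and 3.29. Canonical transcripts of ribosomal protein genes had a median of 869 nt. Those of the members reached from 498 nt (SNHG16) to 6166 nt (SNHG8), and the median of each gene's annotated isoforms from 489 nt (SNHG8) to 2459 nt (SNHG16), so the order of the members by length depends on the isoform taken. With the trend on canonical length taken out of each library, 7 members were called higher in each line; the members' median fell to 1.47 and 1.75 and that of ribosomal protein genes to 1.64 and 1.69. SNHG1 (-0.005) and SNHG16 (0.16) were then no longer called in shCtrl cells, and SNHG5 (-1.09) was called lower. With the median isoform length, an alternative added after the data were seen, 9 members were called higher in each line, with medians of 2.03 and 2.44 against 2.68 and 3.14 for ribosomal protein genes.

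**Figure D3:**
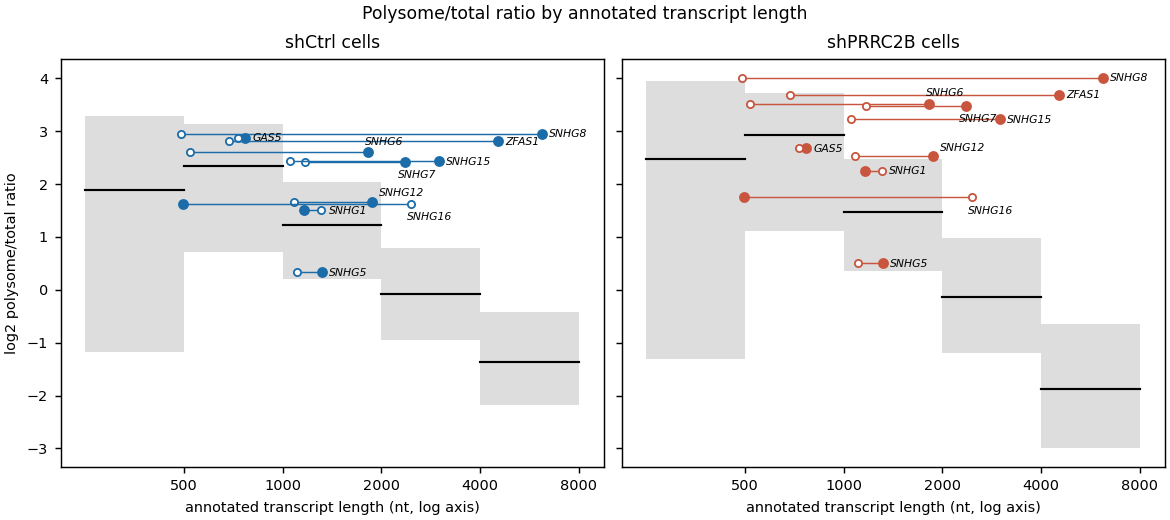
Log2 polysome/total ratio against annotated transcript length (log axis) in shCtrl (left) and shPRRC2B cells (right); black lines and grey boxes are the median and the quartiles of all genes in each length class, with the shortest class drawn from 250 nt and the longest to 8000 nt. Each member is a filled circle at its canonical and an open circle at its median isoform length, and SNHG8, with 6166 and 489 nt, moves from far above its class to within the quartiles in shCtrl cells.

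To ask whether the hosts travelled with ribosomal protein mRNAs, the same model was fitted with the summed counts of ribosomal protein genes as library size, so that 0 means the behaviour of their sum. On this scale 6 members in shCtrl cells did not pass the thresholds in the polysome/total ratio, 4 were lower and 0 higher (0 also at an unadjusted p under 0.05 by edgeR, and by DESeq2 and limma), where 86% of all genes were called lower and 1.91% higher. Closest to the ribosomal protein mRNAs were SNHG8 at 0.03 (SE 0.16), GAS5 at -0.08 (SE 0.20), ZFAS1 at -0.12 (SE 0.16) and SNHG6 at -0.32 (SE 0.15). SNHG7 and SNHG15, both at -0.49 with adjusted p of 0.00471 and 0.00892 by edgeR, missed only the limit of 0.5. The lower members were SNHG12 (-1.24), SNHG16 (-1.31), SNHG1 (-1.45) and SNHG5 (-2.60). Ribosomal protein genes also spread around their own sum. Of the 77 tested, 11 were called higher and 10 lower in shCtrl cells, and 26 and 11 in shPRRC2B cells. On the TMM scale 0 members lay above or below the range of ribosomal protein genes in either ratio. In shPRRC2B cells SNHG8 was higher than the summed ribosomal protein mRNAs (0.77, SE 0.16, adjusted p = 1.38e-04, edgeR). GAS5 (-0.60), SNHG12 (-0.72), SNHG1 (-0.98), SNHG16 (-1.50) and SNHG5 (-2.74) were lower, compared with 3.32% of all genes higher and 84.3% lower. The call of GAS5 was lost without shPRRC2B polysome replicate 1 (-0.46) or total replicate 3 (-0.49), and that of SNHG12 without shPRRC2B polysome replicate 2 (-0.53) or total replicate 3 (-0.45).

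In total RNA the hosts were lower in shPRRC2B than in shCtrl cells or did not pass the test. The test called 5 of 10 lower and 0 higher, compared with 14.1% and 14.9% of all genes, and 44 of 77 ribosomal protein genes were called lower and 0 higher (0 also at an unadjusted p under 0.05, edgeR). GAS5 fell by 1.05 on the log2 scale (SE 0.24, adjusted p = 0.00237, edgeR), SNHG7 by 1.05 (SE 0.15, adjusted p = 5.24e-05, edgeR), SNHG15 by 0.85 (SE 0.15, adjusted p = 2.91e-04, edgeR), SNHG6 by 0.57 (SE 0.12, adjusted p = 0.00163, edgeR) and SNHG1 by 0.57 (SE 0.21, adjusted p = 0.0398, edgeR). The call of SNHG1 was lost when any of the 6 total RNA libraries was left out (-0.63 to -0.51). Of the others, SNHG12 was at -0.56, SNHG8 at -0.39, ZFAS1 at -0.33, SNHG5 at 0.09 and SNHG16 at 0.39. The shPRRC2B libraries lay below the shCtrl libraries without overlap for 7 of 10 members, all but SNHG5, SNHG12 and SNHG16, compared with 28.8% of all genes (34.1% above). The members' median of -0.57 was near that of ribosomal protein genes (-0.61), and the median of all lncRNA genes tested was -0.38. In RNA from whole cultures, less RNA in every cell and RNA missing from some cells cannot be told apart.

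With polysomes the picture split. GAS5 fell by 1.26 on the log2 scale (SE 0.23, adjusted p = 3.44e-04, edgeR), SNHG8 rose by 0.67 (SE 0.13, adjusted p = 6.16e-04, edgeR) and ZFAS1 rose by 0.55 (SE 0.14, adjusted p = 0.00376, edgeR), so that 2 members were called higher and 1 lower, compared with 18.4% and 21.4% of all genes. The rise of ZFAS1 was no longer called without replicate 1 (0.37) or 2 (0.42) of the shCtrl polysome libraries, or without shPRRC2B polysome replicate 3 (0.34). The other 7 lay between -0.05 (SNHG15) and 0.51 (SNHG16, adjusted p = 0.0683, edgeR), and SNHG16 was called higher without shCtrl polysome replicate 3 (0.77). SNHG6 (0.35, adjusted p = 0.0232, edgeR) was under the fold limit, with no overlap between its libraries; 3 members were above shCtrl without overlap (SNHG6, SNHG8 and ZFAS1) and GAS5 below, where 21.6% and 21.5% of all genes were. Of the ribosomal protein genes 6 were higher and 15 lower, from RPL15 (-1.29) to RPL17 (1.25), with a median of -0.13 against 0.28 for the members, and 9 of 10 members lay above that median.

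**Figure D4:**
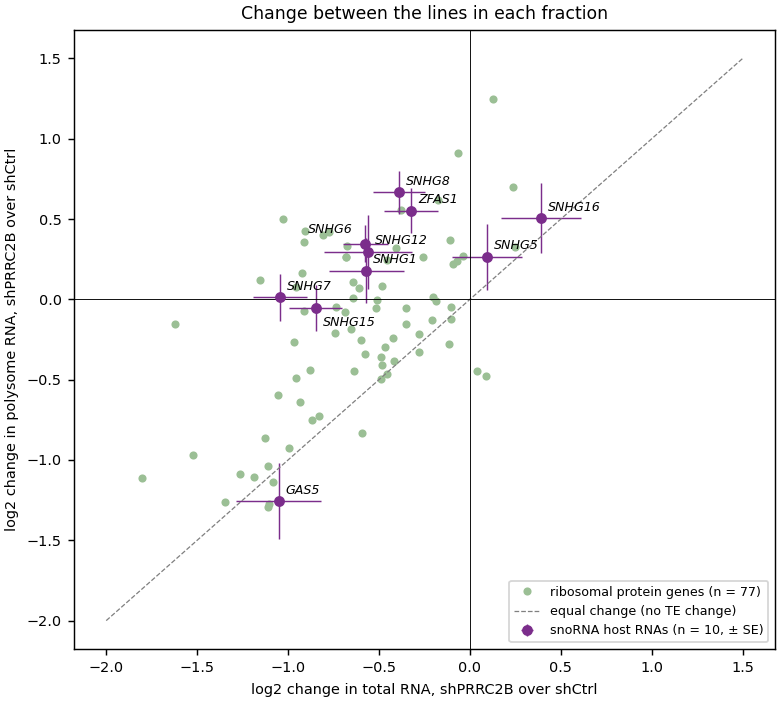
Log2 change from shCtrl to shPRRC2B cells in total RNA (horizontal) and polysome-associated RNA (vertical) for the 10 host RNAs (purple, ± SE) and 77 ribosomal protein genes (green); points on the dashed line changed alike in both fractions. GAS5 lies in the lower left near the line (-1.05 and -1.26), and SNHG6, SNHG7, SNHG8, SNHG15 and ZFAS1 lie above it.

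The translation efficiency (TE) change, which is the polysome/total ratio in shPRRC2B over that in shCtrl cells, combines the same libraries, and TE is used here as a name for that ratio in RNAs without a known protein product. It was higher by the test for 5 of 10 members and lower for 0, compared with 10.7% and 16.4% of all genes. The 5 were SNHG8 (1.06, SE 0.20, adjusted p = 8.36e-04, edgeR), SNHG7 (1.06, SE 0.21, adjusted p = 0.00128, edgeR), SNHG6 (0.92, SE 0.17, adjusted p = 8.15e-04, edgeR), ZFAS1 (0.88, SE 0.20, adjusted p = 0.0042, edgeR) and SNHG15 (0.79, SE 0.20, adjusted p = 0.00773, edgeR), which include all 3 H/ACA box hosts. These 5 also kept the call with the length trend removed by either length, with values from 0.57 to 1.52. SNHG12 at 0.86 and SNHG1 at 0.75 had adjusted p of 0.0652 and 0.0634 by edgeR. SNHG1 was called without shCtrl polysome replicate 3 (0.99) or shPRRC2B polysome replicate 2 (0.85), and SNHG12 without shCtrl polysome replicate 1 (1.12), shPRRC2B polysome replicate 2 (0.99) or shPRRC2B total replicate 3 (1.08).

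The fractions behind these changes differed between members. For SNHG7 and SNHG15 total RNA fell and polysome-associated RNA was at 0.01 and -0.05, for SNHG8 and ZFAS1 polysome-associated RNA rose, and for SNHG6 total RNA fell with a polysome change of 0.35. GAS5, with a fall in both fractions, had a TE change of -0.20 (SE 0.33, adjusted p = 0.69, edgeR), which turned to 0.04 without shCtrl polysome replicate 3. SNHG5 was at 0.17 and SNHG16 at 0.12. The members' median of 0.83 stood beside 0.76 for all 1313 lncRNA genes tested, of which 301 were higher and 21 lower, and 0.34 for ribosomal protein genes, of which 24 were higher and 0 lower (1 at an unadjusted p under 0.05). With TMM scaling and no length term, edgeR called no member lower in either polysome/total ratio or in TE, or higher in total RNA, and the count was 0 in each of these also at an unadjusted p under 0.05 and by DESeq2 and limma. With total count scaling SNHG5 was called lower in the shCtrl ratio, and with the trend on canonical length taken out SNHG5 was called lower in both ratios (-1.09 and -1.39) and SNHG16 higher in total RNA (0.61).

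Relative to ribosomal protein mRNAs the total RNA of 8 members did not pass the thresholds between the lines. SNHG1 (-0.003), SNHG6 (-0.002) and SNHG12 (0.02) were within 0.1 of 0, and SNHG8 was at 0.19, ZFAS1 at 0.24 and SNHG15 at -0.28. SNHG7 at -0.47 (adjusted p = 0.0155, edgeR) missed only the limit of 0.5 and was called lower without shCtrl total replicate 3 (-0.51), and GAS5 was at -0.48 (adjusted p = 0.0539, edgeR). SNHG16 (0.98, SE 0.20, adjusted p = 5.07e-04, edgeR) and SNHG5 (0.66, SE 0.22, adjusted p = 0.0154, edgeR) were higher, as were 46.1% of all genes, and 4.4% of all genes were lower. Of the 77 ribosomal protein genes themselves 8 were higher and 12 lower. SNHG16 had 1.16, 1.14 and 0.835 counts per 1000 ribosomal protein counts in shCtrl and 2.06, 1.81 and 2.32 in shPRRC2B total RNA, without overlap. The call of SNHG5 was lost without replicate 1 (0.57) or 2 (0.61) of the shCtrl and without replicate 1 (0.64) or 3 (0.61) of the shPRRC2B total libraries.

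With polysomes GAS5 fell by 1.01 relative to ribosomal protein mRNAs (SE 0.21, adjusted p = 7.34e-04, edgeR), from 1.83, 3.14 and 3.44 counts per 1000 ribosomal protein counts in shCtrl to 1.11, 1.48 and 1.59 in shPRRC2B cells. SNHG8 rose by 0.92 (SE 0.15), ZFAS1 by 0.80 (SE 0.16), SNHG16 by 0.79 (SE 0.20) and SNHG6 by 0.59 (SE 0.15). For SNHG8 these were 0.267, 0.280 and 0.294 counts per 1000 in shCtrl and 0.579, 0.483 and 0.533 in shPRRC2B polysomes, with no overlap. The 4 rises and 1 fall compare with 25.8% of all genes higher and 13.7% lower on this scale. Of the 77 ribosomal protein genes themselves 17 were higher and 12 lower on it.

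The TE change relative to ribosomal protein mRNAs was higher for SNHG8 (0.74, SE 0.22, adjusted p = 0.0195, edgeR), SNHG7 (0.72, SE 0.21, adjusted p = 0.018, edgeR) and SNHG6 (0.59, SE 0.21, adjusted p = 0.0456, edgeR), where 3.43% of all genes were higher and 22.5% lower. Of the 77 ribosomal protein genes themselves 13 were higher and 3 lower, and of the 1313 lncRNA genes 137 and 35. ZFAS1 (0.56, adjusted p = 0.0823) and SNHG15 (0.48, adjusted p = 0.144) did not pass by edgeR, and GAS5 was at -0.52 (adjusted p = 0.196, edgeR). The call of SNHG6 was lost in 10 of the 12 fits that left out a library (all but replicate 1 of either line's polysome libraries, 0.55 to 0.66). That of SNHG7 was lost when total replicate 2 of shCtrl (0.64) or total replicate 1 of shPRRC2B cells (0.70) was left out, and that of SNHG8 without either of these (0.70 and 0.71) or without total replicate 2 of shPRRC2B cells (0.70).

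**Figure D5:**
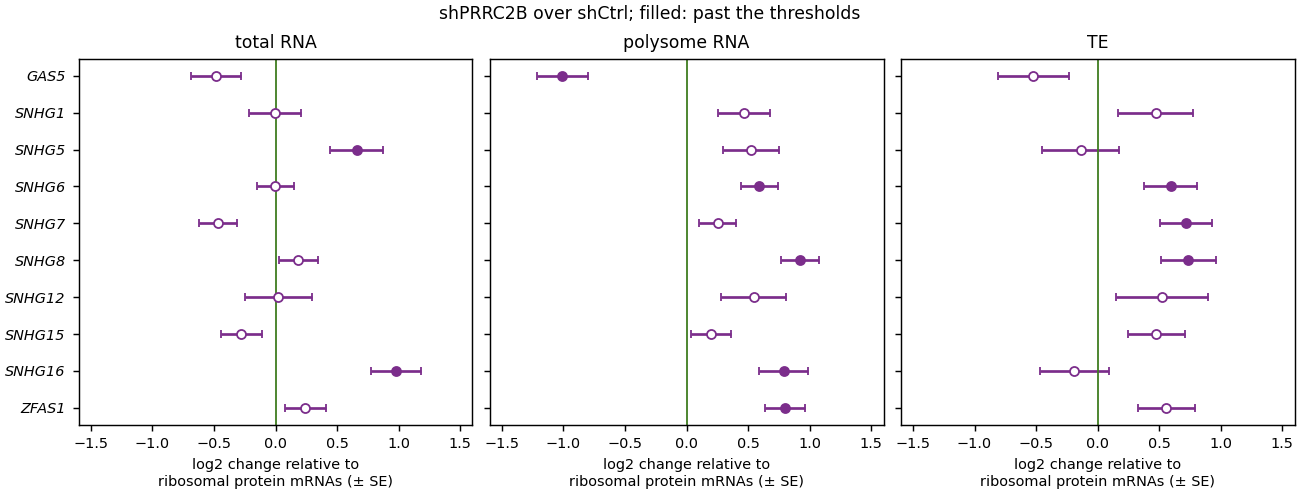
Log2 change from shCtrl to shPRRC2B cells (points, ± SE) of the 10 host RNAs relative to the summed counts of ribosomal protein genes, in total RNA, polysome-associated RNA and TE; filled points passed the thresholds and the green line is the ribosomal protein sum. SNHG16 at 0.98 is the farthest from the line in total RNA, and GAS5 at -1.01 and SNHG8 at 0.92 are the farthest with polysomes.

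Related lists show how the members compared with their neighbours. Of 18 other noncoding snoRNA hosts 14 were tested, and 11 were called higher and 2 lower in the polysome/total ratio in each line. Values in shCtrl cells ran from SNHG32 (-1.73), with a mean of only 0.796 CPM in shCtrl total RNA, to EPB41L4A-AS1 (3.44). Their TE change was higher for 7 and lower for 0 by edgeR (0 also at an unadjusted p under 0.05), with a median of 0.96. Coding snoRNA hosts, which keep their snoRNAs in introns of protein-coding genes, had a median log2 ratio of -0.94 in shCtrl cells, with 2 of 14 higher and 9 lower, from the helicase mRNAs EIF4A1 (-3.56) to EIF4A2 (1.21). Over all genes 32.5% were higher and 39.8% lower in the shCtrl ratio, and 36.6% and 42.3% in the shPRRC2B ratio. In TE 10.7% of all genes were higher and 16.4% lower.

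TOP mRNAs other than those of ribosomal proteins, 15 of 16 tested, were called higher in the ratio in 12 cases in shCtrl and 10 in shPRRC2B cells, from PABPC1 (-1.21), the poly(A)-binding protein, to EEF1B2 (2.92) in shCtrl cells. Their TE change was higher for 0 and lower for 4, with a median of -0.59, on the other side of 0 from the members (0.83) and ribosomal protein genes (0.34). With polysomes 7 of 15 fell and 0 rose, and at an unadjusted p under 0.05 by edgeR 0 were higher in TE or with polysomes. Over all genes 32.5% were higher in the shCtrl and 36.6% in the shPRRC2B ratio. In TE 10.7% of all genes were higher and 16.4% lower, and with polysomes 18.4% and 21.4%.

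Of the 19 NMD factors, the proteins that recognise and degrade RNAs with early stop codons, 4 rose and 4 fell in total RNA, from UPF3A (-1.03) to SMG8 (0.74), and 1 was higher and 7 were lower in TE. Over all genes 14.9% rose and 14.1% fell in total RNA, and 10.7% were higher and 16.4% lower in TE. Of the 8 core proteins of snoRNA particles, 1 fell in total RNA, FBL (-0.59), the methyltransferase of C/D box particles. With polysomes NHP2 (1.05), of H/ACA box particles, rose most of the 3 that rose, and FBL (-0.76) was the 1 that fell. Over all genes 18.4% rose and 21.4% fell with polysomes.

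Across the 12 libraries, the members' mean profile, centred per gene on the log2 scale, was nearest to CENPV, ZDHHC4 and AIG1 among the 10038 other genes at 10 CPM or more on average, with root mean square differences of 0.112, 0.142 and 0.159. The nearest ribosomal protein gene was RPLP0 at 0.16. Of the 10038 genes 75 were ribosomal protein genes, and 4 of these were among the nearest 100. The median differences were 0.536 for ribosomal protein genes and 1.40 for all genes. Taken singly, SNHG6 (0.197), SNHG7 (0.209), SNHG15 (0.223), ZFAS1 (0.304) and SNHG8 (0.366) were nearest to the mean profile of ribosomal protein genes and SNHG16 (0.888) and SNHG5 (1.40) were farthest. All these distances rest on the same 12 libraries.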

How the data were processed

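Total and polysome-associated RNA of 3 replicates each of shCtrl and shPRRC2B cells was sequenced in paired ends by the authors. The authors trimmed the reads (Trimmomatic 0.36 after bcl2fastq 2.19.0), mapped them to GRCh38 with Hisat (2.1.0 in the submitters' processing notes) and deposited raw counts of read pairs per gene name of GENCODE 38 from featureCounts (Subread 2.0.1), not normalized. Pairs on more than 1 gene were not counted and duplicate pairs were ignored by their options. 0 columns of values belonged to no sample. Groups came from the labels, and the 36 h of Dox from the study's methods.

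From these counts, edgeR 4.0.16 (R 4.3.3) was run with filterByExpr (minimum count 10), TMM over 12 libraries, and 1 quasi-likelihood fit of the 4 groups with 5 contrasts. P-values were adjusted by Benjamini-Hochberg over 18166 genes, with thresholds of 0.05 and 0.5 on the log2 scale, those the study used for TE. The fit was repeated with the summed counts of ribosomal protein genes as library size. CPM are TMM-normalized. The members, gene lists and tests were chosen with earlier results of these data known, so no list was tested as a set. Named genes are the members, the extremes of each list, lncRNAs of known location, PRRC2B, and the 3 nearest profiles; other symbols only identify overlapping loci or sequences, and RPLP0 was named after its value was seen.

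Annotation was GENCODE 44 and RefSeq on GRCh38. Replicate numbers did not pair the libraries, as detailed in the closing section. All replicate pairs differed by more than sampling noise. Totals of 9855734 to 20837542 counts set the counting precision, and the errors given are SDs between replicates or SEs of the model. On simulated counts with a log2 TE change of 1.5 in 200 of 17520 genes tested, 180 were recovered (90%), with 3 false calls. That change was larger than the TE changes called for members (0.79 to 1.06). Counts were drawn gene by gene, without deviations shared across a library. The simulation therefore does not give the recovery or error rate for the members. Alternatives were DESeq2 1.42.0, limma 3.58.1 on log2(CPM + 1), other filters and scalings, a lowess length trend (span 0.3), a replicate block and each library left out.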

Additional observations from a re-analysis of the deposited data

Results flagged for a closer look

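The polysome/total ratio of 5 members differed between the lines by the interaction term of the edgeR fit, which is the TE change of the report. The log2 differences, shPRRC2B over shCtrl, were 0.921 for SNHG6, 1.06 for SNHG7, 1.06 for SNHG8, 0.795 for SNHG15 and 0.878 for ZFAS1, with adjusted p between 8.15e-04 and 0.00773 by edgeR. In all 5 the ratio was above 1 in both lines and larger in shPRRC2B cells. With 3 libraries in each group, single libraries could not be screened as outliers.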

How the results depend on the processing

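The TE rise of SNHG6, SNHG7, SNHG8, SNHG15 and ZFAS1, the total RNA fall of GAS5, SNHG6, SNHG7 and SNHG15, the polysome fall of GAS5 and the polysome rise of SNHG8 kept their calls on the all-gene scale under every alternative run and with each library left out, whereas the calls of SNHG5 in the shPRRC2B ratio, SNHG1 in total RNA and ZFAS1 with polysomes did not. Over single members, apart from libraries left out, 542 values kept direction and call on the all-gene scale, 18 gained and 12 lost a call and 28 reversed, and on the ribosomal protein scale 330 kept both, 7 gained, 8 lost and 5 reversed. Counts of 61 to 159 per library limited SNHG5. Causes of these changes were not tested.

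The number of members called lower in the ratio rose from 0 to 1 in shCtrl cells with total count scaling and with the length trend removed (with the block also 1), and in shPRRC2B cells from 0 to 1 with the length trend removed (with the block also 1), and so did members called higher in total RNA (0 to 1 in both, SNHG16). Members higher with polysomes went from 2 to 1 when every gene with a count was tested. Relative to ribosomal protein mRNAs, members higher in the shPRRC2B ratio went from 1 to 2, and members lower in total RNA from 0 to 1, with no minimum fold. Members higher in TE went from 3 to 0 with every gene tested and to 1 with the median of ratios over ribosomal protein genes, and members higher in total RNA from 2 to 1 with every gene tested.

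With the length trend removed, without and with the block, the shCtrl ratio reversed for SNHG1 (-0.0050 and -0.031) and SNHG5 (-1.09 and -1.09), the shPRRC2B ratio for SNHG5 (-1.39 and -1.39) and SNHG16 (-0.21 and -0.20), TE for SNHG5 (-0.31 and -0.30) and SNHG16 (-0.37 and -0.35), and polysome RNA for SNHG1 (-0.22 and -0.20), SNHG5 (-0.13 and -0.12) and SNHG7 (-0.17 and -0.17). By median isoform length, SNHG5 reversed in both ratios (-0.14 and -0.18) and in TE (-0.034), and SNHG7 with polysomes (-0.15). Total count scaling reversed SNHG5 in both ratios (-0.67 and -0.44). SNHG7 with polysomes, at 0.01, was also -0.0032 with DESeq2, -0.0032 with RLE scaling, -0.075 with every gene tested and -0.010 with total count scaling. On the ribosomal protein scale the median of ratios reversed SNHG8 in the shCtrl ratio (-0.031), SNHG7 in the shPRRC2B ratio (-0.020) and, in total RNA, SNHG1 (0.061) and SNHG6 (0.059), and limma reversed SNHG12 in total RNA (-0.0075).

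With each library left out in turn, members higher with polysomes ranged from 1 to 3, and relative to ribosomal protein mRNAs those higher in TE from 0 to 4, lower in TE from 0 to 1, higher in the shPRRC2B ratio from 1 to 2, lower in it from 3 to 5, higher in total RNA from 1 to 2 and lower from 0 to 1. Values that changed sign were the TE of GAS5 (-0.51 to 0.038) and SNHG16 (-0.14 to 0.43), the polysome change of SNHG1 (-0.16 to 0.37), SNHG7 (-0.19 to 0.0068) and SNHG12 (-0.024 to 0.51) and, relative to ribosomal protein mRNAs, the shCtrl ratio of GAS5 (-0.25 to 0.15) and SNHG8 (-0.0085 to 0.066), the shPRRC2B ratio of SNHG15 (-0.11 to 0.12), the TE of SNHG16 (-0.36 to 0.049) and the total RNA of SNHG1 (-0.095 to 0.053), SNHG6 (-0.069 to 0.040) and SNHG12 (-0.24 to 0.14). Over all genes, 5906 and 6655 were higher in the shCtrl and shPRRC2B ratios, and 3214 and 4284 with total count scaling. Genes higher in TE were 1935, and 1285 without shCtrl total replicate 2; on the ribosomal protein scale they were 623, and between 367 and 1250 without a library and 1025 with limma, genes lower in total RNA were 800, 487 with 10 counts in every library and 1259 with limma, and genes higher in the shPRRC2B ratio were 603, and 401 with the median of ratios.

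Same-numbered total and polysome libraries of a line deviated together with r from 0.005 to 0.079 over genes, none over 0.1 in 6 pairs, so the numbers were not taken to pair the samples. With the replicate block, 6 members were higher in TE (SNHG12 gained, 0.89, adjusted p = 0.0423, edgeR) and 2 relative to ribosomal protein mRNAs.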
